A study of Mus musculus with 8 samples.

Results

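Immediate early genes are switched on within minutes of a stimulus, without new protein synthesis, and 10 of them were followed here in the distal colon: Fos, Fosb, Jun, Junb, Atf3, Egr1, Nr4a1, Ier2, Ier3 and Dusp1. They were chosen by their symbols, as early response transcription factors and feedback genes, and are 10 of the 55418 gene symbols of the count table and 10 of the 17522 that held enough reads to be tested. The list was drawn up with earlier results of these libraries known, which may have shaped the choice, so the fold changes and adjusted p below describe the genes and support nothing about the list. RNA was sequenced from 8 C57BL/6 mice aged 8 to 10 weeks, in 4 groups of 2: ΔNFκB mice after DSS, WT mice after DSS, untreated ΔNFκB mice and untreated WT mice. ΔNFκB mice carry an altered NAIL, a long noncoding RNA gene, and WT mice do not. The altered bases are not named in the labels, nor is it said how many founders the line has, or whether the mice were littermates. DSS is dextran sulfate sodium, a polymer that injures the colon epithelium. It was given at 3% for 4 days and followed by 4 days of plain water, so the tissue was taken days after the start of the injury.

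As background, Fos, Fosb, Jun and Junb encode subunits of AP-1, a dimeric transcription factor of the basic leucine zipper family, and Atf3 encodes a stress-induced member of the same family. Egr1 encodes a zinc finger transcription factor and Nr4a1 (Nur77) an orphan nuclear receptor. Ier2 encodes a nuclear protein and Ier3 a stress-response protein known as a target of NF-κB. Dusp1 encodes a phosphatase that inactivates p38, JNK and ERK kinases and so closes the loop on the signals that induce these genes. The genes are induced through serum response factor with its ETS partners, through CREB, and through NF-κB. Their transcripts are short-lived, and handling of tissue is known to induce them.

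The libraries held 9229861 to 16935961 counts each, and each gene is given as CPM, its reads relative to the scaled library size. Deposited counts of the 10 genes were between 39 for Fosb and 4190 for Fos in a single library. Sex, read from Y-linked transcripts, was unbalanced: both untreated ΔNFκB mice and untreated WT replicate 2 were male, and all 4 DSS mice and untreated WT replicate 1 were female. DSS and sex therefore cannot be told apart in ΔNFκB mice, and a sex term rests on the 1 female and 1 male untreated WT mice. The genotypes after DSS were compared between females. Gm16685, taken from general knowledge to be mouse NAIL, had 55 and 86 reads in ΔNFκB DSS, 57 and 126 in WT DSS, 3 and 4 in untreated ΔNFκB and 3 and 20 in untreated WT libraries, and these counts do not show which bases are altered. Epithelial markers such as Epcam and Cdh1 were present in all libraries and summed to 4278 to 8217 CPM over 6 genes. In whole tissue, fewer cells of a type and less RNA per cell cannot be told apart.

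Promoters of 8 of the 10 genes were held by the RefSeq promoter table of GRCm38.p6, and Egr1 and Ier2 had no entry. The 250 bases before the start site are shown for Nr4a1, Ier3 and Dusp1, which changed in these mice, and for Fos, one of the most variable between mice of a group. Capitals mark TGACG or its complement CGTCA, a core that CREB and ATF proteins bind, or, as runs of 10 letters, a match to the κB site bound by NF-κB. The windows are chr15:101266596-101266845 on the plus strand for Nr4a1, chr17:35821463-35821712 on the plus strand for Ier3, chr17:26508473-26508722 on the minus strand for Dusp1, and chr12:85473640-85473889 on the plus strand for Fos.
Nr4a1: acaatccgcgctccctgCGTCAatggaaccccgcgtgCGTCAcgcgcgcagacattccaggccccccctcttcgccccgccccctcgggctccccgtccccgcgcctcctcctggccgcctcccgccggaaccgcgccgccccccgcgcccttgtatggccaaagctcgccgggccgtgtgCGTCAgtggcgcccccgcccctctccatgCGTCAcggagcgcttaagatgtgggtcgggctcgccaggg
Ier3: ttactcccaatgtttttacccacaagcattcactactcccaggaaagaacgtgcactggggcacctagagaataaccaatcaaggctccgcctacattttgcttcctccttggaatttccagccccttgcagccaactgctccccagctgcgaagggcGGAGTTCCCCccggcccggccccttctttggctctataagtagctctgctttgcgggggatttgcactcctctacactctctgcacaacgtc
Dusp1: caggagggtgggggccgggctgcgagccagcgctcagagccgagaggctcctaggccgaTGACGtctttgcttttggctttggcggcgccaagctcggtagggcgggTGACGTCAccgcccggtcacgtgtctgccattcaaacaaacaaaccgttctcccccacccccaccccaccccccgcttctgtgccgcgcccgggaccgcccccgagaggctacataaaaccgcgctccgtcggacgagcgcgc
Fos: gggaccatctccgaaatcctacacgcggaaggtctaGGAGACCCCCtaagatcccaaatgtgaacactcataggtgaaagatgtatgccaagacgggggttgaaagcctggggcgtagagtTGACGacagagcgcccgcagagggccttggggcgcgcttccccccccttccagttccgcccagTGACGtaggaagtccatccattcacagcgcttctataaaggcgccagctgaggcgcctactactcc

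Searched on both strands, TGACG was present in 6 of the 8 member promoters (Fos, Fosb, Junb, Atf3, Nr4a1 and Dusp1), against 17.8% of 32851 promoters of the same length. Nr4a1 had 4 copies, which began 233, 213, 69 and 40 bases before the start. Fos had 2 copies, at 129 and 66 bases. The palindrome TGACGTCA, which contains TGACG on both strands, was present in Dusp1 alone of the 8, beginning 143 bases before the start, and in 1.55% of all promoters. A κB site was matched in Fos, Fosb and Ier3, against 3.90% of all promoters, and the match in Ier3 began 92 bases before its start. Neither TGANTCA, the AP-1 element (6.75% of promoters), nor the CArG box of serum response factor (1.47%) was in any of the 8 windows. Bases further from the start, and the promoters of Egr1 and Ier2, were not searched, so these genes may hold such elements elsewhere. TATAAA was in the Fos window, against 12.4% of promoters. These matches are letters in a window and not sites of measured binding, and the windows of Nr4a1, Dusp1 and Atf3 lie inside the annotated gene, before one of several starts.

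Averaged over the 8 libraries, Fos had the highest level of the 10 per kilobase of exon, at 59.1 CPM per kb. Junb followed at 36.9, Ier2 at 21.7, Jun at 18.9 and Atf3 at 16.1 CPM per kb. Dusp1 had 11.1, Ier3 9.83, Egr1 5.10, Nr4a1 3.37 and Fosb 1.53 CPM per kb. The order was not the same in each group: in WT DSS mice Junb averaged 42.0 CPM per kb and Fos 34.4, and Dusp1 (23.1) and Ier3 (22.5) stood above Jun (15.4) and Atf3 (7.44). The genes also differed in how far their level ranged across the 8 libraries: the highest library was 8.33 times the lowest for Ier3, 6.72 times for Dusp1 and 5.71 times for Atf3. The range was 5.51-fold for Fosb, 5.18-fold for Fos and 4.71-fold for Nr4a1, and between 1.54-fold and 2.14-fold for Ier2, Junb, Jun and Egr1.

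**Figure D1:**
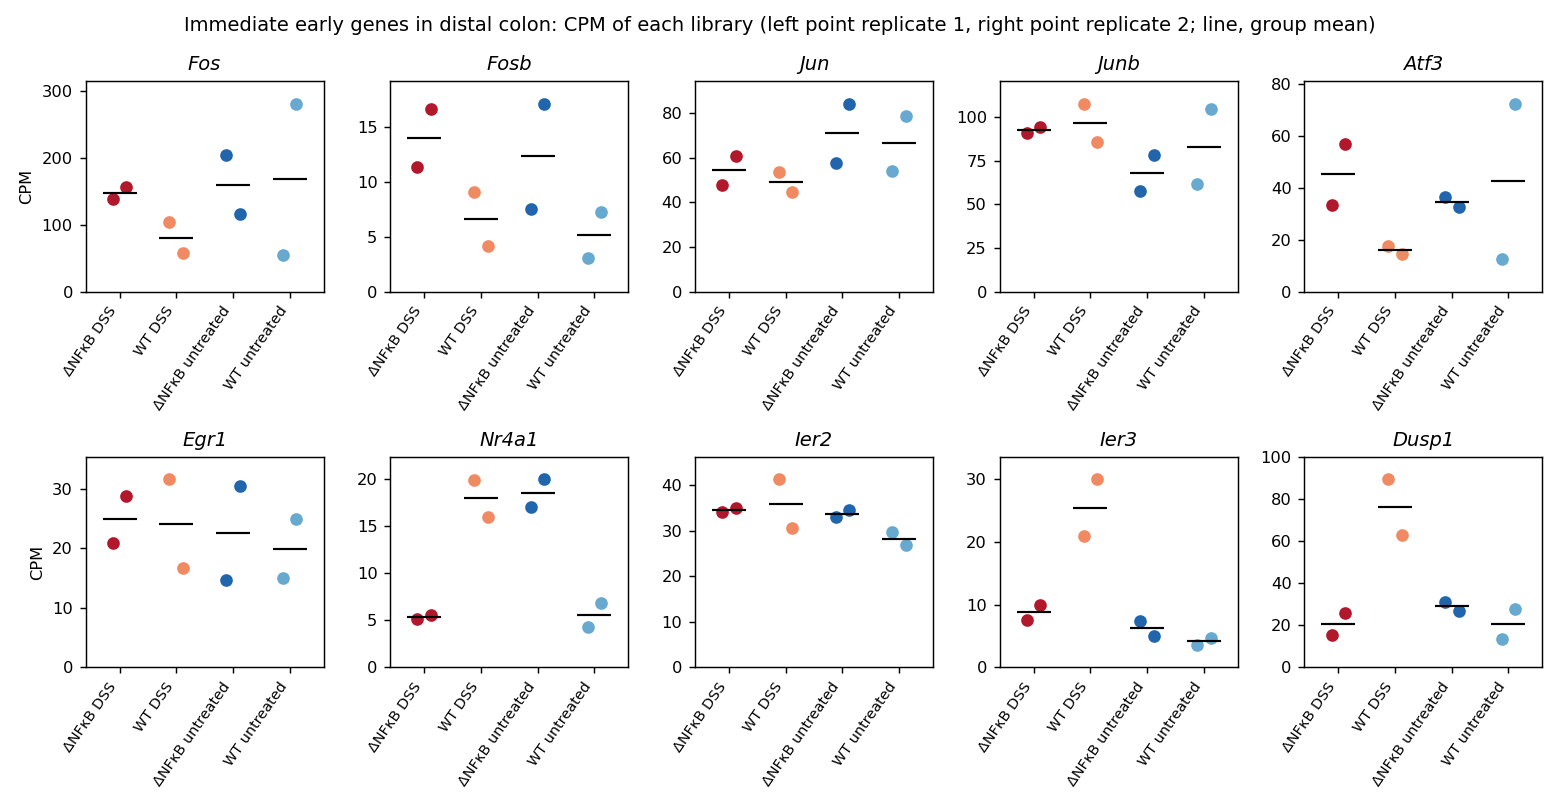
CPM of each of the 10 immediate early genes in every library, with ΔNFκB DSS, WT DSS, untreated ΔNFκB and untreated WT mice from left to right in each panel and a line at the group mean (n = 2). Ier3 and Dusp1 stand highest in both WT DSS mice, Nr4a1 is high in WT DSS and untreated ΔNFκB mice, and Fos and Atf3 are widely apart in the untreated WT mice.

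In ΔNFκB mice, Nr4a1 was the gene of the 10 that passed the test with DSS, and it was lower. At an adjusted p under 0.05 over all 17522 genes (edgeR quasi-likelihood test), 0 of 10 were called higher and 1 lower, where 35.4% of all genes were called, 16.2% higher and 19.2% lower. The median log2 fold change was 0.086 over the 10 genes and -0.038 over all genes tested. Nr4a1 (ENSMUSG00000023034, chr15:101254269-101274795 on the plus strand, mm10) had 5.12 and 5.57 CPM in ΔNFκB DSS mice, against 16.96 and 19.9 CPM in untreated ΔNFκB mice. The groups did not overlap, and the log2 fold change was -1.79 ± 0.25 (adjusted p 0.00144). With a sex term it was -1.09 (adjusted p 0.0672); the treated mice were female and the untreated ones male. The 0 genes called higher by edgeR also had 0 with an unadjusted p under 0.05 in that direction, and DESeq2 and limma-voom each called 1 of the 10 genes in either direction.

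Ier3 (ENSMUSG00000003541, chr17:35821684-35822923 on the plus strand) had 7.58 and 9.89 CPM in ΔNFκB DSS mice, against 7.34 and 5.04 CPM in untreated ΔNFκB mice, a log2 fold change of 0.50 ± 0.28 (adjusted p 0.204). Dusp1 (ENSMUSG00000024190, chr17:26505590-26562128 on the minus strand) had 15.3 and 25.9 CPM in ΔNFκB DSS mice, against 31.3 and 26.7 CPM in untreated ΔNFκB mice, a log2 fold change of -0.50 ± 0.36 (adjusted p 0.318). Neither change passed the test, although in both genes the groups did not overlap. Over the 10 genes this held for 2 that were higher with DSS and 2 that were lower, where 33.8% and 37.9% of all genes did so. Fos had 138.8 and 157.1 CPM in ΔNFκB DSS mice, inside the untreated ΔNFκB values of 203.6 and 116.0 CPM (log2 fold change -0.11 ± 0.63, adjusted p 0.909). Junb had 90.7 and 94.4 CPM in ΔNFκB DSS mice, above the untreated values of 57.4 and 78.1 CPM, with a log2 fold change of 0.45 ± 0.25 (adjusted p 0.195). Fosb, Jun, Atf3, Egr1 and Ier2 had log2 fold changes between -0.39 and 0.38, with adjusted p of 0.234 to 0.883. The sex term, which rests on the untreated WT pair, moved Fos to 2.26 (adjusted p 0.0279), Atf3 to 2.90 (adjusted p 0.00458) and Junb to 1.22 (adjusted p 0.0263).

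In WT mice, DSS was followed by higher Ier3, Dusp1 and Nr4a1, while the AP-1 subunit genes, Egr1 and Ier2 did not pass the test. These 3 of 10 genes were called higher and 0 lower where 36.0% of all genes were called, 17.2% higher and 18.8% lower. The unadjusted p was under 0.05 for the same count of 3 higher and 0 lower, and DESeq2 and limma-voom each called 3. The median log2 fold change was 0.30 over the 10 genes and 0.0024 over all genes tested.

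Ier3 had 20.9 and 29.9 CPM in WT DSS mice, against 3.59 and 4.70 CPM in untreated WT mice. Dusp1 had 89.6 and 63.0 CPM in WT DSS mice, against 13.3 and 27.7 CPM in untreated WT mice. Nr4a1 had 19.9 and 15.9 CPM in WT DSS mice, against 4.23 and 6.84 CPM in untreated WT mice. For each of these genes both DSS mice were above both untreated mice. Over the 10 genes the groups did not overlap in 4 that were higher with DSS and 1 that was lower, where 36.0% and 35.4% of all genes did so. The log2 fold change was 2.61 ± 0.28 (SE) for Ier3 (adjusted p 0.000526), 1.89 ± 0.36 for Dusp1 (adjusted p 0.00542) and 1.68 ± 0.25 for Nr4a1 (adjusted p 0.00193). Against the female untreated mouse alone, which leaves females on both sides, the values were 2.85 for Ier3, 2.54 for Dusp1 and 2.11 for Nr4a1 (adjusted p 0.0027, 0.00305 and 0.00167).

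Fos, the partner of Jun proteins in AP-1, had 103.7 and 57.9 CPM in WT DSS mice, against 54.2 and 281 CPM in untreated WT mice. Atf3 had 17.5 and 14.6 CPM in WT DSS mice, against 12.7 and 72.5 CPM in untreated WT mice. Both DSS values of each gene lay between the 2 untreated ones, and the log2 fold changes of -1.06 ± 0.64 for Fos (adjusted p 0.225) and -1.42 ± 0.65 for Atf3 (adjusted p 0.120) did not pass the test. They turned on which untreated mouse was kept: without replicate 1 they were -1.78 for Fos (adjusted p 0.0111) and -2.15 for Atf3 (adjusted p 0.00205), and without replicate 2 they were 0.60 (adjusted p 0.298) and 0.36 (adjusted p 0.422). Jun had a log2 fold change of -0.44 ± 0.24 (adjusted p 0.177), and both of its WT DSS values, 53.6 and 44.6 CPM, were below the untreated values of 54.2 and 78.6 CPM. For Ier2 the change was 0.35 ± 0.16 (adjusted p 0.116), with 41.2 and 30.5 CPM in WT DSS mice and 29.7 and 26.8 CPM in untreated WT mice. Junb, Fosb and Egr1 had log2 fold changes of 0.22 ± 0.25, 0.32 ± 0.55 and 0.27 ± 0.42, with adjusted p of 0.513 to 0.670.

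**Figure D2:**
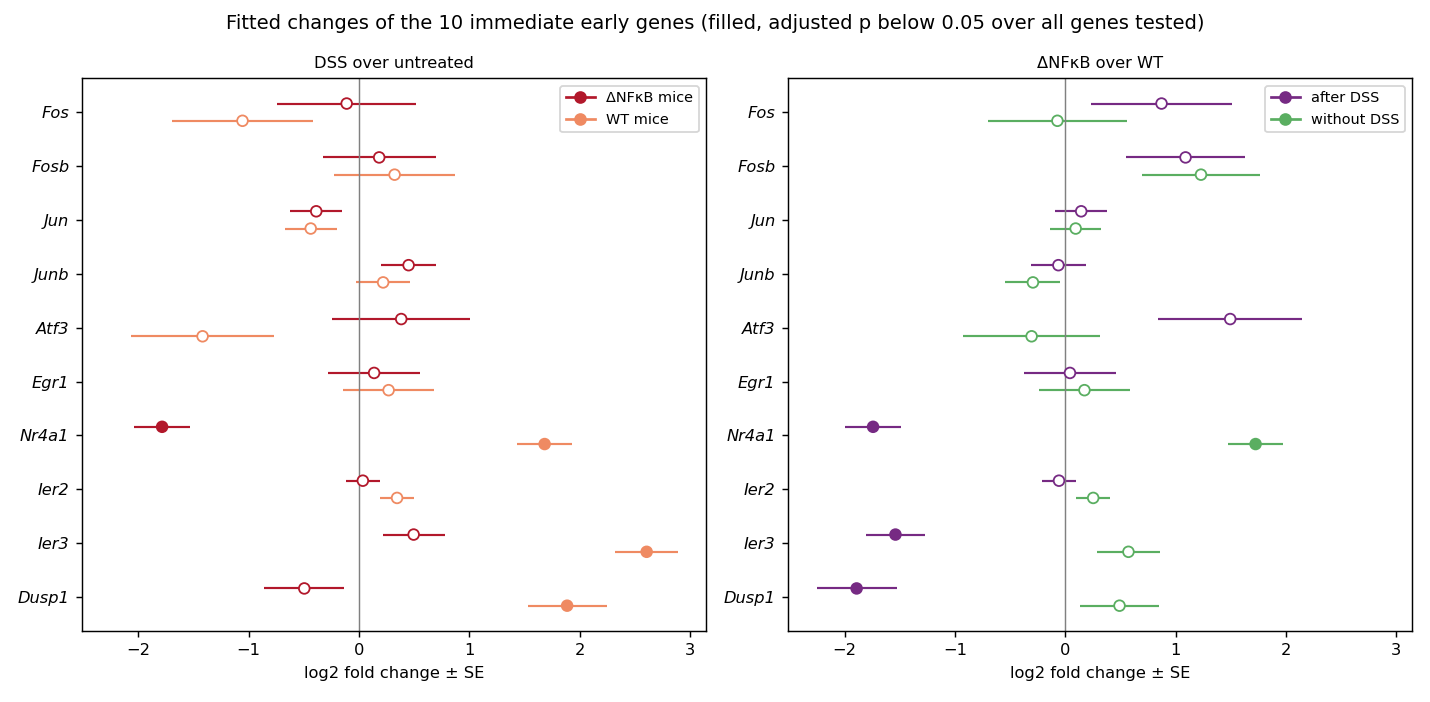
Log2 fold changes ± SE of the 10 genes from the fit over all genes, for DSS over untreated mice (left, ΔNFκB and WT) and for ΔNFκB over WT mice (right, after and without DSS). Filled points have an adjusted p under 0.05: Nr4a1 in ΔNFκB mice with DSS, Ier3, Dusp1 and Nr4a1 in WT mice with DSS, all 3 between genotypes after DSS, and Nr4a1 between untreated mice.

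The DSS responses of the genotypes themselves differed for Nr4a1, Ier3 and Dusp1, each lower in ΔNFκB than in WT mice. These were 3 of 10 genes called lower and 0 higher, where 17.7% of all genes differed, 8.63% higher and 9.07% lower. The response of Nr4a1 in ΔNFκB mice minus that in WT mice was -3.47 ± 0.35 on the log2 scale (adjusted p 0.00421), since the gene fell in ΔNFκB mice and rose in WT mice. The difference was -2.38 ± 0.51 for Dusp1 (adjusted p 0.0201) and -2.11 ± 0.40 for Ier3 (adjusted p 0.0143). For Nr4a1 every fit with a library left out kept the call. The fits in which Dusp1 or Ier3 lost the call also called fewer of all genes. Dusp1 lost it without ΔNFκB DSS replicate 1 (adjusted p 0.0617) or 2 (adjusted p 0.0509), WT DSS replicate 1 (adjusted p 0.0596) or untreated ΔNFκB replicate 1 (adjusted p 0.0636). Ier3 lost it without ΔNFκB DSS replicate 2 (adjusted p 0.0525), WT DSS replicate 2 (adjusted p 0.0553) or untreated ΔNFκB replicate 1 (adjusted p 0.0535). With a sex term the differences were -3.17 for Nr4a1, -1.96 for Dusp1 and -1.94 for Ier3 (adjusted p 0.00284, 0.0183 and 0.0225). Of the other members, Atf3 had 1.801 ± 0.90 (adjusted p 0.189) and Fos 0.94 ± 0.90 (adjusted p 0.480), and both passed the test without untreated WT replicate 1, at 2.55 (adjusted p 0.00597) and 1.68 (adjusted p 0.0457). Without untreated WT replicate 2 they were 0.036 (adjusted p 0.965) and -0.69 (adjusted p 0.394).

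After DSS, the same 3 genes were lower in ΔNFκB than in WT mice, a comparison that shares its libraries with the responses above. Of the 10 genes 3 were called lower and 0 higher, where 20.0% of all genes were called, 8.32% higher and 11.7% lower. At an unadjusted p under 0.05 there were also 3 lower and 0 higher, here and in the difference of responses, and DESeq2 and limma-voom each called 3 in both. Nr4a1 had 5.12 and 5.57 CPM in ΔNFκB DSS mice, against 19.9 and 15.9 CPM in WT DSS mice (log2 fold change -1.74 ± 0.25, adjusted p 0.00472). Ier3 had 7.58 and 9.89 CPM in ΔNFκB DSS mice, against 20.9 and 29.9 CPM in WT DSS mice (-1.54 ± 0.27, adjusted p 0.00833). Dusp1 had 15.3 and 25.9 CPM in ΔNFκB DSS mice, against 89.6 and 63.0 CPM in WT DSS mice (-1.89 ± 0.36, adjusted p 0.0113). Both ΔNFκB mice were below both WT mice for each gene, as in 32.6% of all genes. With any DSS library left out, fewer of all genes were called in this comparison. The call of Ier3 was lost without ΔNFκB DSS replicate 1 (adjusted p 0.056) or 2 (adjusted p 0.0547) or WT DSS replicate 2 (adjusted p 0.0661). That of Dusp1 was lost without ΔNFκB DSS replicate 1 (adjusted p 0.0685) or WT DSS replicate 1 (adjusted p 0.0565).

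Atf3, Fosb and Fos had values on the other side. Fosl1, another gene of the Fos family, was lower in ΔNFκB DSS than in WT DSS mice (-1.79 ± 0.48, adjusted p 0.0340). Its levels were low, at 0.82 and 2.06 CPM against 5.31 and 4.67 CPM. Fosl2, of the same family, did not pass the test (0.011 ± 0.20, adjusted p 0.974). Atf3 had 33.5 and 56.9 CPM in ΔNFκB DSS mice, against 17.5 and 14.6 CPM in WT DSS mice, a log2 fold change of 1.496 ± 0.65 (adjusted p 0.139). Fosb had 11.4 and 16.7 CPM in ΔNFκB DSS mice, against 9.08 and 4.12 CPM in WT DSS mice (1.09 ± 0.54, adjusted p 0.182). Fos had 138.8 and 157.1 CPM in ΔNFκB DSS mice, against 103.7 and 57.9 CPM in WT DSS mice (0.87 ± 0.64, adjusted p 0.363). In all 3 genes both ΔNFκB mice were above both WT mice, as in 35.5% of all genes, and none of the 3 passed the test. Atf3 passed it under 5 of 18 alternatives, among them a fit of the DSS groups alone (1.44, adjusted p 0.0122). Jun, Junb, Egr1 and Ier2 had log2 fold changes between -0.06 and 0.15, with overlapping groups and adjusted p of 0.699 to 0.952.

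Without DSS, Nr4a1 was higher in ΔNFκB mice, the 1 of 10 genes called, where 0.388% of all genes were called, 0.0399% higher and 0.348% lower. It had 16.96 and 19.9 CPM in untreated ΔNFκB mice, against 4.23 and 6.84 CPM in untreated WT mice, and the groups did not overlap. The log2 fold change was 1.73 ± 0.25 (adjusted p 0.0383). The call held under 9 of 18 alternatives, with adjusted p of 6.83e-05 to 0.231 and log2 fold changes of 1.40 to 2.095. It was lost when any library other than untreated WT replicate 1 was left out (adjusted p 0.0713 to 0.231), with the replicate number as a block and with the 2 groups fitted alone (adjusted p 0.190). Against the male untreated WT mouse alone it was 1.40 (adjusted p 0.0424), and with a sex term 1.43 (adjusted p 0.0476).

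Fosb had 7.57 and 17.2 CPM in untreated ΔNFκB mice, against 3.11 and 7.31 CPM in untreated WT mice (1.23 ± 0.53, adjusted p 0.309). Ier3 and Dusp1 had log2 fold changes of 0.57 ± 0.29 (adjusted p 0.369) and 0.49 ± 0.36 (adjusted p 0.529). None of these passed the test. Fos, Jun, Junb, Atf3, Egr1 and Ier2 had values between -0.30 and 0.25, with adjusted p of 0.456 to 0.972. The groups did not overlap in 4 of 10 genes, all higher in ΔNFκB mice, where 22.5% of all genes were higher and 22.7% lower without overlap.

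The order of the group means differed between genes. Ier3 stood highest in WT DSS mice at 25.4 ± 6.42 CPM (SD, n = 2 in each group), then came ΔNFκB DSS at 8.74 ± 1.64, untreated ΔNFκB at 6.19 ± 1.62 and untreated WT mice at 4.14 ± 0.78, with no overlap between neighbours. Dusp1 averaged 76.3 ± 18.8 CPM in WT DSS mice, 29.0 ± 3.27 in untreated ΔNFκB, 20.6 ± 7.50 in ΔNFκB DSS and 20.5 ± 10.2 in untreated WT mice, and the last 2 of these overlapped. Nr4a1 averaged 18.4 ± 2.102 CPM in untreated ΔNFκB and 17.9 ± 2.80 in WT DSS mice, which overlapped, and 5.54 ± 1.85 in untreated WT and 5.34 ± 0.31 in ΔNFκB DSS mice, which also overlapped. Between the first and the second pair of groups Nr4a1 did not overlap. For Fosb, Jun, Junb and Egr1 each group overlapped its neighbours in the order. For Fos and Atf3 the WT DSS mice were lowest and did not overlap the group next above, while the other neighbours overlapped. For Ier2 the untreated WT mice were lowest, without overlap with the untreated ΔNFκB mice.

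The 2 mice of a group were further apart for these genes than for the typical gene. The median absolute log2 gap between the mice was 0.36 over the 10 genes in ΔNFκB DSS mice, against 0.20 over all genes, and 0.47 against 0.20 in WT DSS mice. In untreated ΔNFκB mice it was 0.48 against 0.22, and in untreated WT mice 0.74 against 0.25. The genes of a group also tended to stand on 1 side: 10 of 10 were higher in replicate 2 of ΔNFκB DSS mice, against 52.7% of all genes, and 1 of 10 in replicate 2 of WT DSS mice, against 46.7%. In untreated ΔNFκB mice 6 of 10 were higher in replicate 2, against 51.4% of all genes, and in untreated WT mice 9 of 10, against 49.6%. The widest gaps were in untreated WT mice, where replicate 2 had 5.71 times the Atf3 and 5.18 times the Fos of replicate 1. These mice also differ in sex, and time to dissection, which is not given, was not tested.

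**Figure D3:**
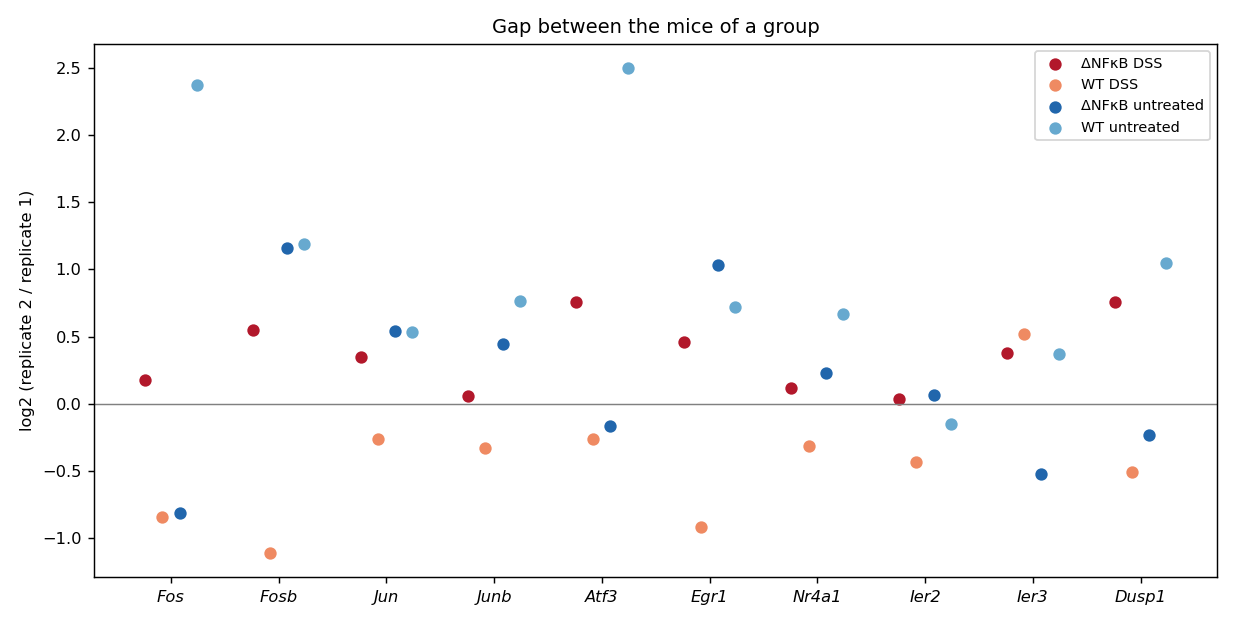
Log2 ratio of replicate 2 to replicate 1 for each of the 10 genes in ΔNFκB DSS, WT DSS, untreated ΔNFκB and untreated WT mice. All 10 points of ΔNFκB DSS lie above 0 and 9 of 10 points of WT DSS lie below it, and Fos and Atf3 of untreated WT mice lie above 2.

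Across the 8 libraries, centred on each gene's own mean, Fos and Atf3 followed each other with a root mean square (RMS) difference of 0.32 on the log2 scale, and Junb and Egr1 with 0.28. Ier3 and Dusp1 were each other's nearest member at 0.54, and the nearest member of Nr4a1 was Dusp1 at 0.60. Except for Fos and Atf3, each member had a closer gene outside the 10. Examples were Bud23 for Junb at 0.11, Lipk for Egr1 at 0.16, Rnf157 for Ier3 at 0.23 and Mir5623 for Nr4a1 at 0.26. Among all other tested genes, Dusp1 had Mir155hg at 0.26 and Fosl1, an AP-1 subunit gene, at 0.27 as its nearest profiles, and Fos had Efnb3 at 0.36 and Areg, an EGF receptor ligand gene, at 0.37. The genes nearest to the mean profile of the 10 were AA465934 at 0.18, A130014A01Rik, Blcap and Gm37215 at 0.19, and Slc25a33 at 0.19. That mean profile was lowest in untreated WT replicate 1, at -0.85, and highest in WT DSS replicate 1, at 0.41. The median span of the 10 genes was 4698.5 bases against 24803 bases for 14255 tested protein-coding genes, and 7 of 10 spanned under 10 kb against 23.7%. Atf3, at 47744 bases, and Dusp1, at 56539, were longer than that median. A span runs from the first to the last annotated base of a gene. The starts used for the promoter windows of Atf3, Dusp1 and Nr4a1 lie inside their spans, so transcripts from those starts are shorter.

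A wider list of 49 other immediate early genes, of which 48 were tested, was followed beside the 10. In ΔNFκB mice 2 of 48 were higher with DSS and 12 lower, where 16.2% of all genes were higher and 19.2% lower. In WT mice 15 were higher and 7 lower, where 17.2% of all genes were higher and 18.8% lower. Their median log2 fold change was -0.30 in ΔNFκB and 0.40 in WT mice. The smallest p in WT mice were of Cebpb, Ptgs2 and Klf4. Cebpb, a bZIP transcription factor of inflammation, had 67.6 and 46.3 CPM in WT DSS mice against 9.58 and 11.1 CPM in untreated WT mice (2.46 ± 0.21, adjusted p 0.000202). Ptgs2, the inducible cyclooxygenase, had 61.9 and 139.2 CPM in WT DSS mice against 8.30 and 7.38 CPM in untreated WT mice (3.68 ± 0.40, adjusted p 0.000557). Klf4, a transcription factor of differentiated epithelium, fell to 290.6 and 239.3 CPM in WT DSS mice, against 510.3 and 652.6 CPM in untreated WT mice (-1.13 ± 0.16, adjusted p 0.00159).

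In ΔNFκB mice the 3 smallest p were of genes that fell. Btg1, an antiproliferative gene, had 138.0 and 145.6 CPM with DSS against 324.3 and 372.6 CPM untreated (-1.30 ± 0.12, adjusted p 0.000288). Ccn2, the gene of connective tissue growth factor, had 4.71 and 6.70 CPM with DSS against 49.1 and 29.6 CPM untreated (-2.78 ± 0.41, adjusted p 0.0016). Zfp36l1, which encodes an mRNA decay factor, had 58.5 and 49.5 CPM with DSS against 108.7 and 90.2 CPM untreated (-0.88 ± 0.13, adjusted p 0.00188). Its call was lost with a sex term (-0.77).

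The DSS responses differed between genotypes for 12 of the 48 genes, all lower in ΔNFκB than in WT mice, where 9.07% of all genes were lower. They included Ptgs2 (-4.05 ± 0.57, adjusted p 0.00764), Sik1, a salt-inducible kinase gene (-2.97 ± 0.43, adjusted p 0.00798), and Zfp36l1 (-1.28 ± 0.19, adjusted p 0.00806). After DSS 1 of 48 was higher in ΔNFκB than in WT mice and 11 were lower, where 8.32% and 11.7% of all genes were. Ptgs2 had 6.86 and 11.3 CPM in ΔNFκB DSS mice against 61.9 and 139.2 CPM in WT DSS mice (-3.47 ± 0.41, adjusted p 0.00276), and Cebpb 21.8 and 19.2 CPM against 67.6 and 46.3 CPM (-1.47 ± 0.20, adjusted p 0.00376). Klf4 was the higher one, with 520.6 and 553.6 CPM in ΔNFκB DSS mice against 290.6 and 239.3 CPM in WT DSS mice (1.02 ± 0.16, adjusted p 0.00558), and its call was lost without replicate 2 of either group. Without DSS edgeR called 0 of 48, where 0.388% of all genes were called. At an unadjusted p under 0.05 there were 11 higher and 0 lower, with no share of all genes taken to set beside them. DESeq2 called 2 of the 48 and limma-voom 0, where they called 264 and 71 of all genes. The smallest p there were of Sik1 (1.24, adjusted p 0.150), the clock gene Per1 (1.21, adjusted p 0.172) and Zfp36l1 (0.43, adjusted p 0.196), and DESeq2 called Sik1 (adjusted p 0.0171) and Per1 (adjusted p 0.00902).

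**Figure D4:**
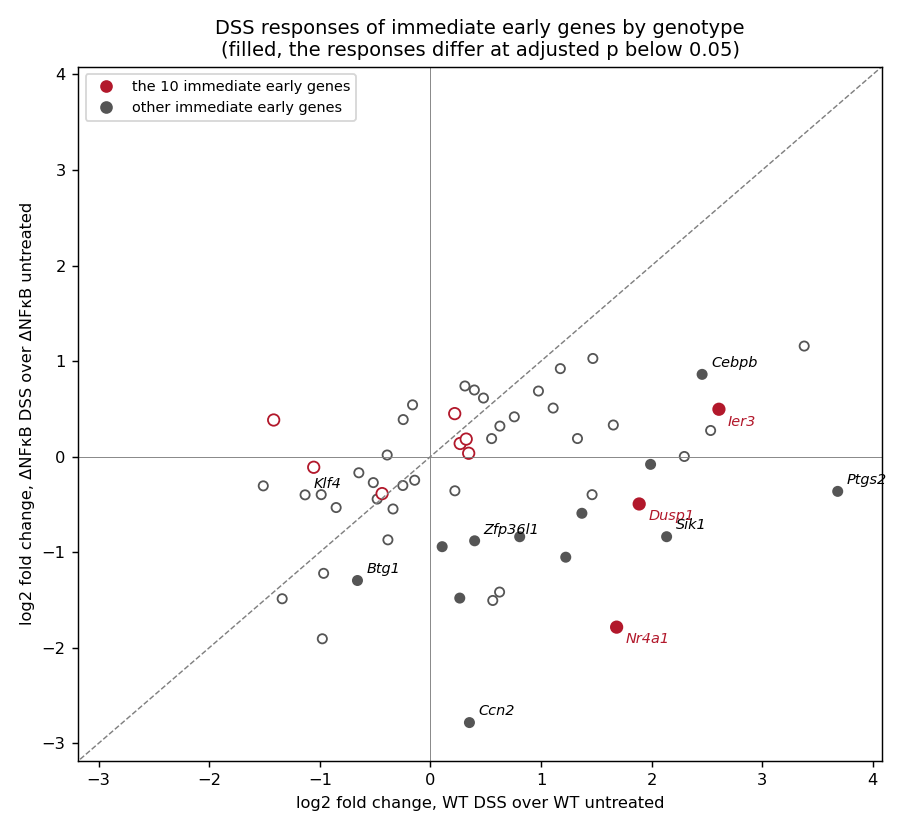
Log2 fold change with DSS in ΔNFκB mice (vertical) against that in WT mice (horizontal) for the 10 genes (red) and the 48 other immediate early genes (grey), with a dashed line of equal response. Filled points are genes whose responses differ at an adjusted p under 0.05, and the named ones among the 10, Nr4a1, Ier3 and Dusp1, lie below the line.

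Genes upstream and downstream were read by count. With DSS 16.2% of all genes were higher and 19.2% lower in ΔNFκB mice, and 17.2% were higher and 18.8% lower in WT mice. After DSS 8.32% of all genes were higher in ΔNFκB than in WT mice and 11.7% lower. Of 31 kinases and transcription factors that act upstream, 4 were higher and 5 lower with DSS in ΔNFκB mice, and 12 higher and 5 lower in WT mice. Rps6ka4, which encodes MSK2, a kinase of histone H3 and CREB, rose in both, by 1.11 ± 0.14 in ΔNFκB (adjusted p 0.000868) and 1.54 ± 0.14 in WT mice (adjusted p 0.000233). After DSS 2 of the 31 were higher in ΔNFκB than in WT mice and 4 lower, led by Elk3, an ETS partner of serum response factor (-2.03 ± 0.24, adjusted p 0.0027). Of 12 other feedback phosphatase and Sprouty genes, 2 were higher and 4 lower with DSS in ΔNFκB mice, and 4 higher and 2 lower in WT mice. Spry1, an inhibitor of receptor kinase signalling, fell by 1.23 ± 0.22 in ΔNFκB mice (adjusted p 0.00404). It was the 1 of the 12 whose responses differed (-1.19 ± 0.31, adjusted p 0.0351), where 17.7% of all genes did. After DSS 0 of the 12 were higher in ΔNFκB than in WT mice and 1 was lower, Dusp22 (-1.17 ± 0.31, adjusted p 0.0322). Of 11 bZIP partners of the AP-1 proteins, 2 were higher and 2 lower with DSS in ΔNFκB mice, and 3 higher and 1 lower in WT mice. After DSS 1 of the 11 was higher in ΔNFκB than in WT mice and 2 were lower, among them Maf (-1.001 ± 0.15, adjusted p 0.00539) and Jdp2, a repressor that pairs with Jun proteins (-1.87 ± 0.33, adjusted p 0.00857).

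Of 12 genes known as AP-1 targets, 4 were higher with DSS and 0 lower in ΔNFκB mice, where 16.2% of all genes were higher, and 11 were higher and 0 lower in WT mice, where 17.2% were, with median log2 fold changes of 1.83 in ΔNFκB and 4.40 in WT mice. Mmp9, a gelatinase that neutrophils also carry, rose by 2.01 ± 0.24 in ΔNFκB (adjusted p 0.000765) and 4.53 ± 0.23 in WT mice (adjusted p 2.31e-05). After DSS 9 of 12 were lower in ΔNFκB than in WT mice and 1 was higher, where 11.7% and 8.32% of all genes were. In either direction limma-voom called 6 of the 12 there and DESeq2 11. The responses differed for 5 of 12, 4 of them lower in ΔNFκB mice, where 17.7% of all genes differed and 9.07% were lower. Without DSS edgeR called 0.388% of all genes. Of the lists it called 0 of the 12 AP-1 targets, 0 of the 31 upstream genes, 0 of the 12 feedback genes and 0 of the 11 bZIP partners. At an unadjusted p under 0.05 there were 1, 6, 3 and 2 of them, again with no share of all genes taken. Limma-voom called 0 in each list, and DESeq2 called 1 bZIP partner and 0 in the others.

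Markers of several cell types differed between the DSS groups or with DSS. Between untreated genotypes edgeR called 0 of 60 markers, where 0.388% of all genes were called. Of these markers 7 had an unadjusted p under 0.05, for which no share of all genes was taken. DESeq2 called 1 marker and limma-voom 0. Neutrophil markers, such as S100a8 and Csf3r, summed to 71.7 to 72.9 CPM over 6 genes in ΔNFκB DSS mice and 272 to 369 CPM in WT DSS mice. They summed to 0.569 to 7.89 CPM in untreated ΔNFκB and 1.04 to 1.27 CPM in untreated WT mice, where Mmp8 and Retnlg were at 0. All 6 were higher with DSS in both genotypes, where 16.2% of all genes were higher in ΔNFκB and 17.2% in WT mice. All 6 were lower in ΔNFκB DSS than in WT DSS mice, where 11.7% of all genes were lower. Fibroblast markers, such as Col1a1 and Pdgfra, summed to 537 to 680 CPM in ΔNFκB DSS, 1798 to 2750 in WT DSS, 1485 to 1508 in untreated ΔNFκB and 1071 to 1812 in untreated WT mice. Endothelial markers, such as Pecam1 and Cdh5, summed to 22.6 to 31.4 CPM in ΔNFκB DSS, 87.5 to 114.2 in WT DSS, 77.1 to 102.4 in untreated ΔNFκB and 79.2 to 96.9 in untreated WT mice. Of the fibroblast markers 6 of 6, and of the endothelial markers 4 of 6, were called lower in ΔNFκB DSS than in WT DSS mice, against 11.7% of all genes.

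Smooth muscle markers, such as Myh11 and Des, summed to 995 to 1012 CPM in ΔNFκB DSS and 1139 to 1445 CPM in WT DSS mice. They summed to 6159 to 6337 CPM in untreated ΔNFκB and 3925 to 7682 CPM in untreated WT mice. In both genotypes 9 of 9 fell with DSS, where 19.2% of all genes were lower in ΔNFκB and 18.8% in WT mice. The 3925 CPM were of untreated WT replicate 2, the male mouse with high Fos and Atf3. That mouse also had the higher epithelial sum of its group, 8217 CPM, and a link between these values was not tested. Epithelial markers summed to 6866 to 7231 CPM in ΔNFκB DSS, 4278 to 4843 in WT DSS, 5865 to 6712 in untreated ΔNFκB and 6440 to 8217 in untreated WT mice. Macrophage markers, such as Csf1r and Cd68, summed to 133 to 150.1 CPM in ΔNFκB DSS, 212 to 216 in WT DSS, 162 to 208 in untreated ΔNFκB and 172 to 179 in untreated WT mice. After DSS 8.32% of all genes were higher in ΔNFκB than in WT mice and 11.7% lower. Of the other lists, goblet cell markers such as Muc2 had 5 of 5 higher in that comparison. Absorptive colonocyte markers had 1 of 4 higher and 1 lower, and enteric neuron and glia markers had 5 of 6 lower. The 3 B and plasma cell markers summed to 3.92 to 53.2 CPM in ΔNFκB DSS, 63.3 to 84.1 in WT DSS, 95.1 to 205 in untreated ΔNFκB and 189 to 235 in untreated WT mice. The 4 T cell markers summed to 8.35 to 12.4 CPM in ΔNFκB DSS, 12.7 to 17.0 in WT DSS, 3.50 to 19.5 in untreated ΔNFκB and 3.59 to 5.23 in untreated WT mice. The part of these cell types in the levels of the 10 genes was not tested.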

How the data were processed

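Total RNA of distal colon was made into TruSeq Total RNA libraries and read as paired 150 bp reads on a HiSeqX, per the labels' protocols. The submitters' processing notes name HISAT2 2.1, SAMtools 1.8, featureCounts, Subread 1.6.2 and mm10; for the annotation, strand setting and multiply mapped reads, no source used here gives the choice. The deposited tables hold expected counts per gene, not normalized. Exactly compared, 18.8% of values above 0 had a fractional part, so all were rounded, where whole counts had been planned for. Fos was not whole in 3 libraries and Junb in 2. Jun shares 7.28% of its exon bases with Junos and Junb 7.52% with Prdx2, on the opposite strand, and reads there cannot be assigned without strand.

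Of 55536 lines, 115 repeated symbols were summed, and filterByExpr kept 17522 of 30454 genes with a count. One edgeR 4.0.16 quasi-likelihood fit of the 4 groups (R 4.3.3, TMM factors 0.882 to 1.15, 4 residual and 4.28 prior degrees of freedom, biological coefficient of variation 17.1%) gave 5 comparisons with two-sided tests and Benjamini-Hochberg adjusted p over all genes. SE is the fold change over the square root of F. The adjusted p measure the spread between samples labelled as replicates. The 10 members and all gene lists were chosen with earlier results of these data known. Genes named from a list are among its 3 smallest p in that comparison. Nearest profiles of single members, the marker examples and the Fosl1, Fosl2 and Areg rows were picked after their values were seen.

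Tried in place of these settings were upper quartile and RLE factors, limma-voom 3.58.1, DESeq2 1.42.0, other filters, a replicate block, the compared groups alone, a sex term, some gene classes left out, and each library left out, when its group's lone mouse is assumed to vary like the others.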

Additional observations from a re-analysis of the deposited data

Results flagged for a closer look

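The DSS response of ΔNFκB mice minus that of WT mice was tested with edgeR, at an adjusted p under 0.05 over all genes. It passed for 3 of the 10 genes and 12 of the 48 other immediate early genes, where 17.7% of all genes did. The difference was -3.47 for Nr4a1, -2.38 for Dusp1 and -2.11 for Ier3 on the log2 scale. For Ptgs2, Sik1 and Zfp36l1, picked from the 12 for the smallest p, it was -4.05, -2.97 and -1.28. The responses of the 3 genes and of all 12 others were lower in ΔNFκB than in WT mice, where 9.07% of all genes were lower. Dusp1 and Ier3 did not keep the call in every fit with a library left out, and the fits in which they lost it also called fewer of all genes. Groups of 2 allowed no test for outlying samples.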

How the results depend on the processing

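Of the values of single genes recomputed under the alternatives, 58 changed sign, and 1 of these, Fos with DSS in ΔNFκB mice under a sex term, also passed the test. Of those that kept their sign, 1054 kept their side of the threshold, 25 lost it and 20 gained it. The cause was not tested. The number of the 10 genes called was 1 with DSS in ΔNFκB mice and 3 with a sex term, 3 for the difference of responses and 5 with a sex term, and 1 without DSS, where the replicate block and the 2 groups fitted alone gave 0. Of the 48 other genes, 14 were called with DSS in ΔNFκB mice and 9 with a sex term, 12 after DSS and 19 with the 2 groups alone, and 0 without DSS against 2 by DESeq2 and 2 without a count filter. With 1 library left out, the 10 genes gave 1 to 1 calls with DSS in ΔNFκB mice, 3 to 5 in WT mice, 1 to 5 for the difference, 1 to 4 after DSS and 0 to 1 without DSS. The 48 others gave 9 to 20, 12 to 24, 3 to 15, 2 to 17 and 0 to 0.

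Signs turned for uncalled members. With a sex term, log2 fold changes were 2.26 for Fos, 0.15 for Jun, -0.12 for Ier2 and 0.56 for Dusp1 with DSS in ΔNFκB mice, 0.57 for Fos and 0.33 for Atf3 with DSS in WT mice, -0.15 for Jun and -0.14 for Egr1 without DSS, and 0.33 for Fosb and 0.18 for Egr1 in the difference. Upper quartile factors gave -0.021 for Ier2 with DSS in ΔNFκB mice, -0.032 for Egr1 after DSS and -0.044 for Jun in the difference. Limma-voom gave 0.31 for Fos and 0.14 for Atf3 without DSS. Egr1 after DSS was -0.0074 with the 2 groups alone.

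With 1 library left out, values with DSS in ΔNFκB mice ran from -0.44 to 0.37 for Fos, -0.27 to 0.91 for Fosb, -0.022 to 0.72 for Atf3 and -0.28 to 0.77 for Egr1. In WT mice they ran from -1.78 to 0.60 for Fos, -0.36 to 1.10 for Fosb, -0.085 to 0.68 for Junb, -2.15 to 0.36 for Atf3 and -0.27 to 0.71 for Egr1. In the difference they ran from -0.69 to 1.68 for Fos, -0.90 to 0.56 for Fosb, -0.26 to 0.33 for Jun, -0.21 to 0.55 for Junb and -0.57 to 0.47 for Egr1. After DSS they ran from -0.068 to 0.33 for Jun, -0.21 to 0.13 for Junb, -0.34 to 0.59 for Egr1 and -0.25 to 0.19 for Ier2. Without DSS they ran from -0.84 to 1.53 for Fos, -0.23 to 0.36 for Jun, -0.65 to 0.12 for Junb, -1.09 to 1.42 for Atf3 and -0.47 to 0.58 for Egr1.

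The labels do not say whether replicate numbers pair the mice. The correlation of replicate differences between groups was -0.126 to 0.244, which cannot settle it. With the replicate block Nr4a1 without DSS was 1.74 (adjusted p 0.0608), Fos there 0.0060 and Egr1 after DSS -0.024.

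Over all genes, 6199 were called with DSS in ΔNFκB mice (3343 with a sex term) and 6315 in WT mice. There were 3499 after DSS (4029 with the 2 groups alone), 3102 in the difference (3772 with a sex term) and 68 without DSS. Without DSS DESeq2 called 264, the sex term 176, no count filter 330, and the block and the 2 groups alone 0. Groups of 2 mice limit every value here.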
